A study of Homo sapiens with 4 samples.

Results

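The olfactory receptor genes of chromosome 11 were examined for the binding sites and chromatin loops of cohesin and CTCF in a lymphoblastoid cell line (LCL). Members were taken from the GENCODE release 44 annotation of hg38 as the protein-coding genes of chromosome 11 whose symbol is OR, a family number, letters and a number. This rule, which uses the gene name and position and no measured value, found 172 members among the 1317 protein-coding genes of the chromosome and the 20046 of the genome. The other 1145 coding genes of chromosome 11 served for comparison, and they include 6 coding genes with pseudogene-type names such as OR56B2P that the rule leaves out. The cells were HG00731, a B cell line immortalised with Epstein-Barr virus and untreated here. One group held 2 replicates of cohesin HiChIP with an antibody against the SMC1 subunit after FA-EGS cross-linking (formaldehyde followed by EGS, a longer protein cross-linker). The other held 2 replicates of CTCF HiChIP after formaldehyde alone (FA). The targets therefore differed in fixation as well as in antibody, and these cannot be told apart.

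Olfactory receptors are G-protein-coupled receptors that bind odorants on the cilia of olfactory sensory neurons. Each such neuron expresses 1 receptor gene out of the whole repertoire, and in most other tissues the genes are silent. They stand in tandem clusters that arose by duplication. Class I receptors form the older group and sit together in a single cluster that surrounds the beta-globin genes, whereas class II receptors are spread over many clusters. Cohesin is a ring complex that extrudes loops of DNA, and CTCF is a zinc-finger protein that halts it at an oriented DNA motif, so that loop ends tend to carry motifs that point at each other.

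HiChIP joins contact mapping with immunoprecipitation. It gives peaks, where the precipitated fragments pile up, and loops, here pairs of 5 kb bins with more read pairs than expected. For each target 1 list of peaks and 1 list of loops had been made from both replicates together. No value per replicate was at hand and the files do not give the depth of a library. The study lists more reads for SMC1 than for CTCF, so depth is a further difference between the targets that cannot be told apart from antibody and fixation. No test was therefore run, all values below are descriptions of these lists, and the 95% intervals (Wilson for shares, exact Poisson for densities) cover counting error only. Neighbouring members share peaks and loops, so these intervals are too narrow. The peak lists held 97364 SMC1 and 63555 CTCF peaks, of which 4819 and 3402 lay on chromosome 11. The loop lists held 28012 loops labelled SMC1 and 80487 labelled CTCF, and 1807 and 4669 of them lay on chromosome 11. The sizes of the loop lists are those that the study gives for the opposite targets, so the loops are named by their label throughout. The labelled cell type was checked against marker genes, for which a summit near the 5′ end is a weak guide. SMC1 summits lay within 1 kb of the 5′ end of 7 of 10 B cell marker genes, against 1 of 6 T cell and 2 of 6 neuronal markers. For CTCF these counts were 6, 2 and 0. Among the other coding genes of chromosome 11 such a summit was present for 52.7% (SMC1) and 36.8% (CTCF), and every marker of the 3 lists had summits of both targets within 20 kb, so the peaks say little about the cell type.

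Near the 172 members, within 20 kb of a gene body, lay the summits of 74 SMC1 peaks and 68 CTCF peaks. CTCF motif sites under these peaks are shown first, some because they stand in anchors of loops described below and some for their flanks. A motif of 19 bp was learned from the 3000 CTCF summits with the highest -log10 q-value outside chromosome 11. It read NNGCCACNAGGGGGCGCNN and held 15.8 bits, and a match needed at least 13 bits within 300 bp of a summit on either strand. A match was found at 30 of the 68 CTCF peaks near members (44.1%, from 32.9% to 55.9%) and at 31.8% of the 3334 other CTCF peaks of chromosome 11. When the search was moved 2 kb to the right, 1 of the 68 and 2.10% of the others matched. For SMC1 peaks the shares were 35.1% (26 of 74, from 25.2% to 46.5%) near members and 20% elsewhere. A match is a description of the letters and not a measured site of binding. The sites below are reference sequence of hg38 from 5′ to 3′ on the strand of the motif, with the match in capitals. Each is named by its nearest member, and other coding genes can lie nearer. The first 6 stand at anchors of loops described further on. The last 4 form 2 pairs with alike flanks.
OR52N2, chr11:5808597-5808655, minus strand: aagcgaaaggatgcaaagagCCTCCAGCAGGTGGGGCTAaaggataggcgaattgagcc
OR52B6, chr11:5600424-5600482, plus strand: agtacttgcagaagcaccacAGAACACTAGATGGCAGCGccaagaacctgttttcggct
OR5A2, chr11:59430087-59430145, minus strand: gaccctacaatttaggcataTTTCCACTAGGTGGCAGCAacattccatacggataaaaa
OR10D3, chr11:124195289-124195347, minus strand: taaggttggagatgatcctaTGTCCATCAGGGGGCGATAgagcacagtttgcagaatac
OR8B3, chr11:124402479-124402537, plus strand: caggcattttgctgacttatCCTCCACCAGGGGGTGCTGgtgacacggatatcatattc
OR8A1, chr11:124586391-124586449, minus strand: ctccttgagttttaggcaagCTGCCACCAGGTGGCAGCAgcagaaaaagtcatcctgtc
OR51F1, chr11:4783054-4783112, minus strand: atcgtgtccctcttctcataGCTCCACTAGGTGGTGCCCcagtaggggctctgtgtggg
OR5AK2, chr11:56993859-56993917, plus strand: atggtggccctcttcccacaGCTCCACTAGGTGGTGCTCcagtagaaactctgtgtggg
OR4C5, chr11:48384851-48384909, plus strand: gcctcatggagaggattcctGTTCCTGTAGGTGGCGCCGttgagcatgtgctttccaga
OR4C12, chr11:49995740-49995798, minus strand: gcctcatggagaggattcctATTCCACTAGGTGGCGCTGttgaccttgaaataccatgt

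The flanks in lower case were compared because they played no part in the match. Between the sites near OR51F1 and OR5AK2, which lie in different clusters, 33 of the 40 flanking bases were equal (82.5%). Between those near OR4C5 and OR4C12 the count was 30 of 40 (75%). Another pair joined sites near OR52M1 and OR5AK2 at 27 of 40 bases (67.5%). The flanks of the site near OR4C12 were 92.5% identical to those of 2 further sites of chromosome 11 with no member within 20 kb. In all, 14 of the 32 distinct sites near members (43.8%, from 28.2% to 60.7%) had a partner elsewhere on the chromosome with at least 60% of flanking bases in common. Among the 1157 other sites the share was 9.51% (from 7.95% to 11.3%). The site near OR52K1 had 6 partners, none of them with a member within 20 kb, and the closest stood at 90.0%. In the pair near OR51F1 and OR5AK2, at 82.5%, the motif in capitals was nearly the same as well. The motifs of partners with no member nearby were not compared base by base. Others of the 14 were less alike, such as the site near OR52N2 with its partner at 60%. The median best identity was 55.0% for sites near members and 52.5% for the other sites. The kind of sequence was not annotated.

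Cohesin and CTCF peaks were sparse around the olfactory receptor genes. An SMC1 summit lay within 20 kb of 61 of the 172 members (35.5%, from 28.7% to 42.9%), compared with 91.3% of the other coding genes of chromosome 11. The share for CTCF was 62 of 172 (36.0%, from 29.2% to 43.5%) against 90.0%. Both kinds of summit were present for 47 members (27.3%), and neither was present for 96 (55.8%), against 7.51% of the other genes. The members differed from the other genes in length. Receptor genes are short. Their median length was 1082 bp and that of the other genes 21466 bp, and a window around a longer gene is wider. With windows of equal length, 20 kb either side of the 5′ end, the shares were 32% of members and 87.1% of other genes for SMC1 and 32.6% and 83.1% for CTCF.

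At the 5′ ends themselves summits were rarer still. An SMC1 summit lay within 1 kb of the 5′ end of 6 members (3.49%) and of 52.7% of the other genes. For CTCF these values were 3 members (1.74%) and 36.8%. The 3 members with both were OR51D1, OR52N2 and OR4S1, and SMC1 alone was found at OR52H1, OR56B4 and OR2AG2. Counting summits in the gene body as well, each target reached 9 members, which added OR51L1, OR51B5 and OR56A1 for both, and OR51M1, OR9Q1 and OR8A1 for CTCF. OR51B5 and OR9Q1 are annotated with bodies over 20 kb, which makes them wide targets, and OR51B5 spans 202209 bp.

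Class I and class II members differed in how near the peaks came. SMC1 summits lay within 20 kb of 32 of 55 class I members (58.2%) and of 29 of 117 class II members (24.8%). For CTCF the shares were 49.1% and 29.9%. The intervals of the classes did not overlap for SMC1, from 45.0% to 70.3% against from 17.8% to 33.3%, and they met for CTCF. The median distance from a gene to the nearest SMC1 summit was 14.7 kb for class I, 50.7 kb for class II and 0 kb for the other genes, most of which have a summit inside the gene body. All 55 class I members had a summit of each target within 100 kb, but only 72.6% of class II members had an SMC1 summit that near and 68.4% a CTCF summit. Farthest of all was OR4C46, 1054 kb from the nearest SMC1 summit and 754 kb from the nearest CTCF summit. Because all class I members belong to 1 cluster, class and cluster cannot be told apart.

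**Figure D1:**
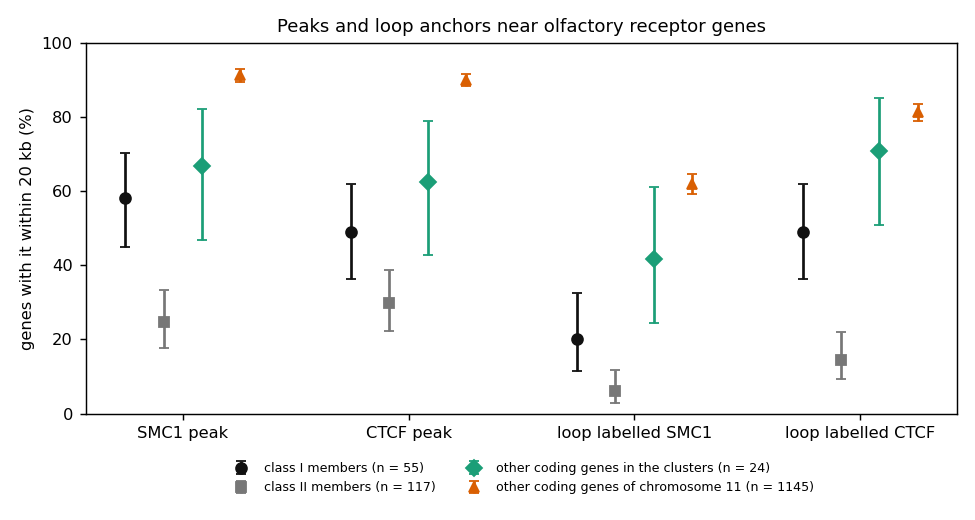
Share of genes (%) with an SMC1 peak summit, a CTCF peak summit or an anchor of a loop of either list within 20 kb, for class I members, class II members, the other coding genes inside the clusters and the other coding genes of chromosome 11. Points are shares and bars are 95% Wilson intervals; class II members lie lowest for every measure, at 24.8%, 29.9%, 5.98% and 14.5%.

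**Figure D2:**
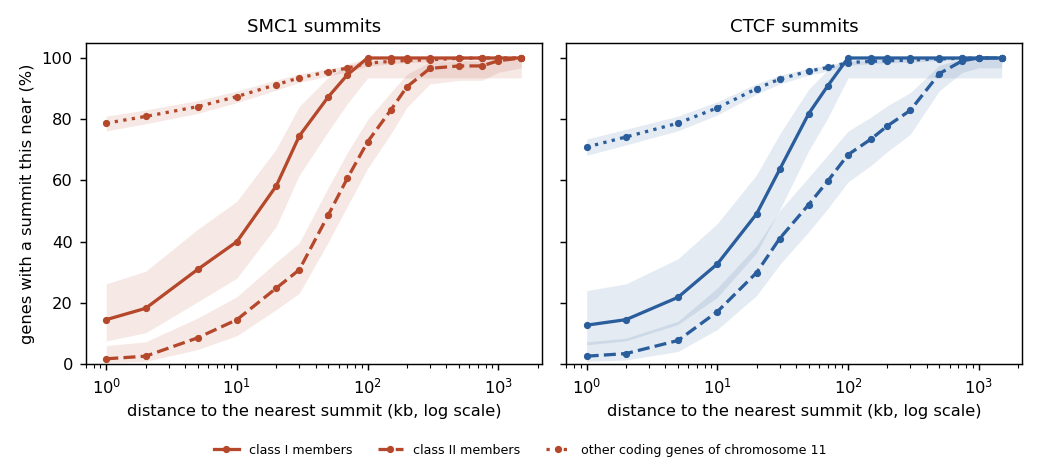
Share of genes (%) with a summit within a given distance (kb, log scale), for SMC1 and CTCF, with 95% Wilson intervals as bands. Both classes of receptor genes start near the bottom at 1 kb, with 14.5% of class I and 1.71% of class II members for SMC1, while the other coding genes start at 78.7%.

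Families within the classes were alike in part. In class I, 15 of 27 OR52 genes, 13 of 22 OR51 genes and 4 of 6 OR56 genes had an SMC1 summit within 20 kb. Among the class II families, OR5 was the largest, with 7 of 35 genes near an SMC1 summit and 6 near a CTCF summit. For OR4 the counts were 7 and 10 of 26, for OR8 they were 6 and 6 of 23, and for OR10 they were 2 and 6 of 16. All 5 OR2 genes lay near an SMC1 summit, but they stand in only 2 clusters and share peaks.

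Members separated by at most 500 kb were joined into clusters. This gave 10 clusters with 2 or more members, 5.91 Mb in all, and OR2AT4, the receptor for a sandalwood odorant, on its own. Inside the clusters there were 90 SMC1 summits, 15.2 per Mb (from 12.2 to 18.7), and 70 CTCF summits, 11.8 per Mb (from 9.23 to 15.0). The rest of chromosome 11 held 36.8 and 25.9 per Mb. Sequence over 100 kb from any coding gene held 7.57 and 6.12 per Mb. The pooled cluster densities lay between these and those of the rest of chromosome 11, which includes such sequence. For SMC1, OR9Q1 to OR5B21 (4.13), OR4A16 to OR5AK2 (5.47), OR6X1 to OR8A1 (7.23) and OR4B1 to OR4A47 (7.33) lay below 7.57 per Mb. OR5P2 to OR10A3 and OR4C46 to OR4A5 held no summit. OR4C13 to OR4C45 (12.3), the class I cluster (27.8) and OR5AN1 to OR10V1 (36.6) lay between, and OR2AG2 to OR2D3 (38.4) lay above. The class I cluster held 51 of the 90 SMC1 summits. Those peaks that were present were not weak. The median fold enrichment was 4.12 inside and 3.35 outside for SMC1, and 5.51 and 4.92 for CTCF. The median -log10 q-value was 17.1 against 14.5 and 26.4 against 20. Inside the clusters SMC1 and CTCF met about as often as elsewhere: 44 of 90 SMC1 peaks (48.9%) overlapped a CTCF peak, against 50.2% in the rest. Of the CTCF peaks in clusters, 46 of 70 (65.7%, from 54.0% to 75.8%) overlapped an SMC1 peak, against 74.9%. Among peaks within 20 kb of a member, 44 of 74 SMC1 peaks (59.5%, from 48.1% to 69.9%) and 48 of 68 CTCF peaks (70.6%, from 58.9% to 80.1%) overlapped the other target.

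Reads from near-identical copies can be lost when only unique alignments are kept, and receptor genes are a multigene family. The share of 32-base words with a single match in hg38 was therefore counted. Within 20 kb of members the median was 87.8%, and around other coding genes it was 86.4%. Members with a peak of either target within 20 kb had 87.6% and members without one had 88.3%. Divided by the length of single-match sequence only, SMC1 summits numbered 18.1 per Mb in clusters and 43.6 in the rest, and CTCF summits 14.1 and 30.7. In the small clusters near the centromere single-match words made up 55.7% of OR4C46 to OR4A5, 62.4% of OR4B1 to OR4A47 and 67.3% of OR4C13 to OR4C45. They made up 78.1% of OR5P2 to OR10A3 and 84.4% of the rest of the chromosome. A word counts as single even where a copy differs by a base. The part that lost alignments play in the shortage of peaks was not tested. Base composition differed as well. The median G+C content within 20 kb was 37.3% for members and 46.1% for other genes, and it was 38.4% for members with a peak and 36.7% for those without. By class the median G+C content was 38.2% for class I and 37.1% for class II. The ratio of observed to expected CpG around the 5′ end was 0.153 for members and 0.663 for the others. Between members with and without a peak this ratio hardly differed, at 0.156 and 0.148. The part that base composition plays in the shortage of peaks was not tested.

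The clusters differed among themselves. The class I cluster, OR52B4 to OR52W1 (chr11:4367263-6200186), held 55 members, 51 SMC1 summits and 33 CTCF summits, 27.8 and 18.0 per Mb. The class II cluster OR4A16 to OR5AK2 (chr11:55343201-56989843) is nearly as long and held 48 members but only 9 SMC1 and 6 CTCF summits, 5.47 and 3.64 per Mb. For SMC1 the intervals were from 20.7 to 36.6 and from 2.50 to 10.4 per Mb. The class I cluster also holds 17 other coding genes and OR4A16 to OR5AK2 only 2, and the part of this difference in the density of peaks was not tested. OR6X1 to OR8A1 (chr11:123753580-124582942), a shorter cluster, held 6 SMC1 and 13 CTCF summits around 22 members, 7.23 and 15.7 per Mb. Its SMC1 density was near that of OR4A16 to OR5AK2, and its CTCF density was near that of the class I cluster. OR9Q1 to OR5B21, with 13 members, held 2 and 3. The peaks of OR5AN1 to OR10V1, 13 and 8 around 8 members, lay in a stretch that also holds 3 other coding genes. No summit of either target fell inside OR5P2 to OR10A3 (4 members) or OR4C46 to OR4A5 (3 members), where a count of 0 allows up to 25.3 and 35.2 per Mb. For 7 of the 10 clusters, the 200 kb on either side held more SMC1 summits per Mb than the cluster. The flanks of OR6X1 to OR8A1 reached 60 per Mb against 7.23 inside, and those of OR9Q1 to OR5B21 reached 42.5 against 4.13. Around OR4A16 to OR5AK2 the flanks were as poor in SMC1 summits as the cluster, 5.00 against 5.47 per Mb, but for CTCF they held 12.5 against 3.64.

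**Figure D3:**
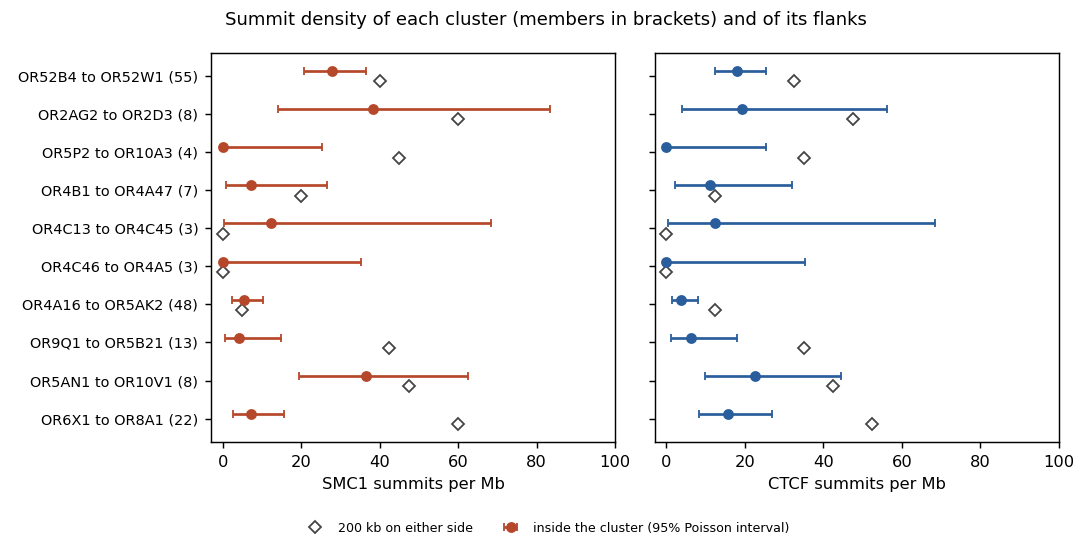
SMC1 and CTCF summits per Mb inside each cluster of at least 2 members (filled, with exact 95% Poisson intervals) and in the 200 kb on either side (open diamonds). The class I cluster OR52B4 to OR52W1 stands at 27.8 SMC1 summits per Mb and OR4A16 to OR5AK2 at 5.47.

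The longest stretch of any cluster without a summit of either target ran for 535 kb in OR4A16 to OR5AK2 and held 23 members, from OR8I2 to OR5M1. The next stretches in the same cluster were 365 kb, from OR5AP2 to OR5AK2, and 301 kb, from OR4A15 to OR4S2. Peaks stood between these stretches. A group of 4 SMC1 summits lay 354.2 to 383.7 kb from the first member, and 3 CTCF summits there had folds of 9.20, 11.9 and 10.6, the highest CTCF folds inside the cluster. Of the other peaks, one lay 3900 bp from OR4C6, at a fold of 6.57 for SMC1 and 3.87 for CTCF, and another 6581 bp from OR5I1, at 7.54 and 8.58. The peaks that bound the longest stretch were weak, with SMC1 folds of 2.57 beside OR8I2 and 2.86 beside OR5M1 and no CTCF peak at either. In the class I cluster the longest gap was 177 kb, from OR51S1 to OR51A2.

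**Figure D4:**
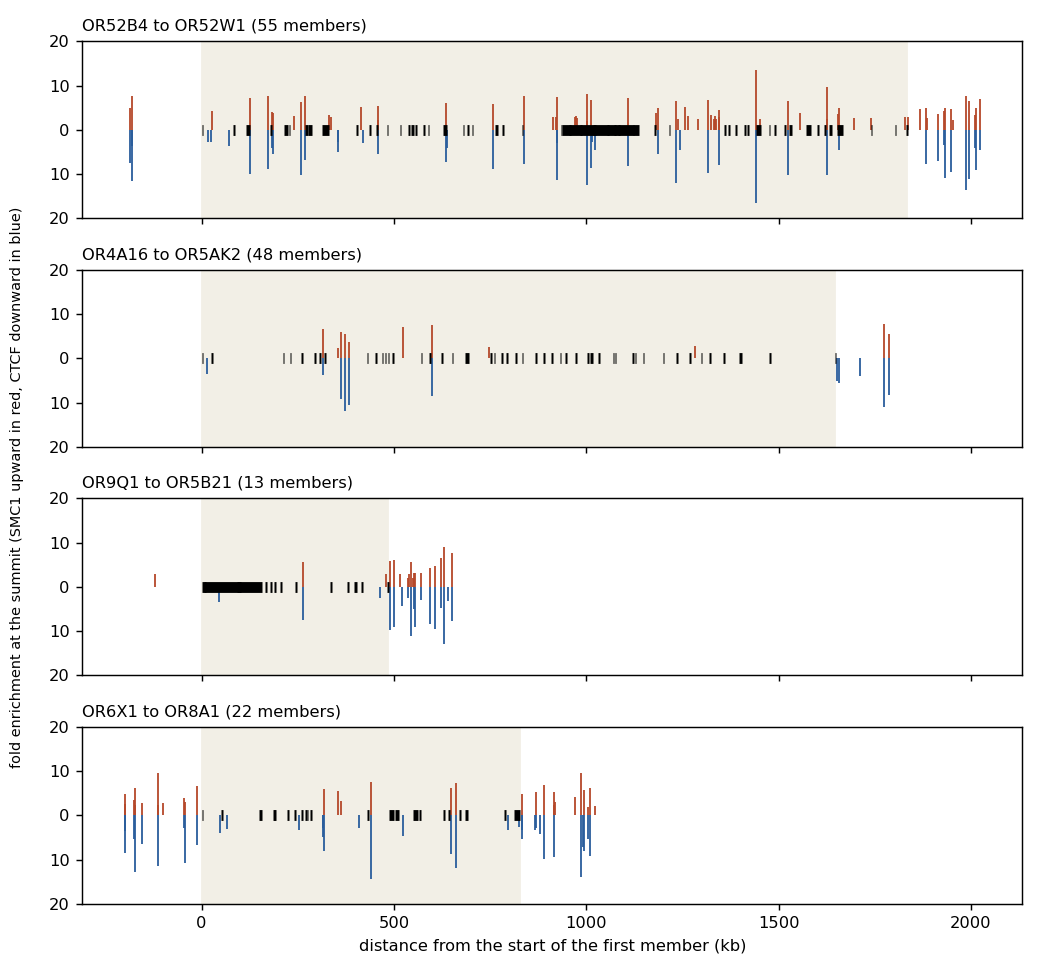
Members (black blocks), SMC1 summits (red, upward) and CTCF summits (blue, downward) of the 4 clusters with at least 10 members, by distance from the first member (kb), with height as fold enrichment and the cluster shaded. The class I cluster carries summits along its whole length, whereas 23 members of OR4A16 to OR5AK2 share a stretch of 535 kb without any.

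The strongest SMC1 peak near a member had its summit 52 bp before the 5′ end of OR52N2, a class I receptor gene, with a fold of 13.6 and a -log10 q-value of 329. The CTCF summit lay 66 bp before the same 5′ end, with a fold of 16.6 and a -log10 q-value of 199. OR52N2 lies within the annotated body of TRIM5, which encodes an antiviral restriction factor, on the opposite strand. The peak was within 20 kb of OR52N1 as well. The promoter of OR52N2 is printed because it was the only one among the members to hold a summit. RefSeq promoters of build GRCh38.p14, 250 bases before to 50 after the start, could be matched by symbol for 133 members and 803 other genes. An SMC1 summit fell in 1 of the 133 (0.752%) and in 19.3% of the others, and a CTCF summit in 0.752% and 11.8%. It also had the most CpG dinucleotides of any member promoter, 14 in 300 bases, against a median of 1 for members and 23 for other genes. The capitals mark the CpG dinucleotides.
OR52N2 promoter, chr11:5808674-5808973, plus strand: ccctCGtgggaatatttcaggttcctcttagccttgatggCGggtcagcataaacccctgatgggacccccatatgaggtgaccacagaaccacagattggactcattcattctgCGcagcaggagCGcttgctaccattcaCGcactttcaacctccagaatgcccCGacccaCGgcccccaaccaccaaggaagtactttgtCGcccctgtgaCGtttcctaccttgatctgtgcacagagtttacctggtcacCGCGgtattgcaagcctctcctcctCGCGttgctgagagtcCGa

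The other strong SMC1 peaks lay 17008 bp from OR4D9 (fold 8.83, -log10 q-value 179), 357 bp before the 5′ end of OR51D1 (7.69 and 150) and inside OR51B5 (8.10 and 137). The peak at OR51D1 was within 20 kb of OR51E1 too, a receptor also known from the prostate. The strongest CTCF peak near a member was another, with a fold of 18.4 and a -log10 q-value of 360. It stood 3666 bp from OR5A2 and 6390 bp from OR5A1, the receptor for the violet odorant beta-ionone. The SMC1 peak at the same place had a fold of 7.26 and a -log10 q-value of 110. Next in order were the CTCF peaks at 6436 bp from OR10D3 (fold 14.5, -log10 q-value 261), at OR52N2, and at 18509 bp from OR52B6 (12.0 and 191). The peak near OR52B6 lay inside the body of TRIM6, 3668 bp from the 5′ end of TRIM6-TRIM34. At the limit of the window, the farthest SMC1 summit counted lay 19148 bp from OR2AG2 and the nearest one left out 20498 bp from OR51B4. For CTCF these were 19972 bp from OR5B21 and 23037 bp from OR52B4.

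OR51V1 and OR51B4 are the receptor genes on either side of the beta-globin genes. The SMC1 and CTCF peaks nearest OR51V1 had folds of 7.54 and 7.76, and the strongest ones within 20 kb of OR51B4 had 7.46 and 11.4. The latter lie inside the annotated bodies of HBG2 and HBE1, whose longest models reach past OR51B4, and weaker peaks beside them had folds of 2.79 for SMC1 and 2.97 for CTCF. Loops labelled CTCF joined the bin chr11:5205001, next to the one that holds the 5′ end of OR51V1, to bins inside OR51B5 at chr11:5370001, with 66 read pairs where 5.12 were expected, and at chr11:5380001, with 52. The bin with the 5′ end itself, chr11:5200001, was joined to chr11:5370001 by 63 read pairs.

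Few members lay near a loop. An anchor of a loop labelled SMC1 lay within 20 kb of 18 members (10.5%, from 6.72% to 15.9%), against 61.9% of other coding genes. For loops labelled CTCF the count was 44 members (25.6%, from 19.6% to 32.6%) against 81.3%. All 18 were among the 44. Class I members again stood above class II, with 20% against 5.98% for the SMC1 label and 49.1% against 14.5% for the CTCF label. Of the 24 other coding genes inside the clusters, 41.7% and 70.8% had an anchor within 20 kb, and 66.7% and 62.5% had an SMC1 or a CTCF summit. Loops near members numbered 26 and 95, and 20 of them used the same pair of bins in both lists. Their median span was 252 kb and 200 kb, against 125 kb and 120 kb for other loops of the chromosome. The median ratio of observed to expected read pairs was 5.14 and 6.90, against 3.99 and 4.08, but every listed loop had been called for exceeding its expected number. The median read pair count was lower near members, 18.5 and 20 against 22 and 23. Read pairs ranged from 12 to 58 and from 12 to 102. A peak of either target overlapped both anchors of 17 of the 26 and of 72 of the 95 loops. The study states that its caller requires an enriched anchor, and the other loops were not counted. These counts therefore say nothing particular to the members.

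In the class I cluster, 40 loops labelled CTCF had both anchors inside and 18 had one. For the SMC1 label these counts were 3 and 10. They ran through the cluster in steps. The bin chr11:4185001, outside the cluster, was joined to chr11:4490001 beside OR52K1 by 70 read pairs at 16.4 times the expected number in the CTCF-labelled list and by 39 at 9.26 times in the other. The same outer bin reached OR52M1 at chr11:4535001, with 45 read pairs at 17.5 times the expected number, the highest ratio near any member. Further along, OR51D1 was joined to OR51F2 at 11.4 times and to OR51L1 at 10.6 times the expected number. A bin near OR52B6 was joined to the bin of OR52N2, with 58 read pairs at 10.2 times the expected number, and with 22 at 5.11 times in the SMC1-labelled list. The bin near OR52B6 also lay within 5 kb of the 5′ ends of TRIM6 and TRIM6-TRIM34, so this loop may not be one between receptor genes. The motif sites of these anchors, printed above, lay on the plus strand at OR52B6 and on the minus strand at OR52N2, so they pointed at each other. OR52N2 was also reached from a bin inside OR51B5 at chr11:5475001, with 42 read pairs at 9.57 times. The longest loops inside the cluster, 755 kb and 745 kb, joined OR51D1 to OR51M1.

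**Figure D5:**
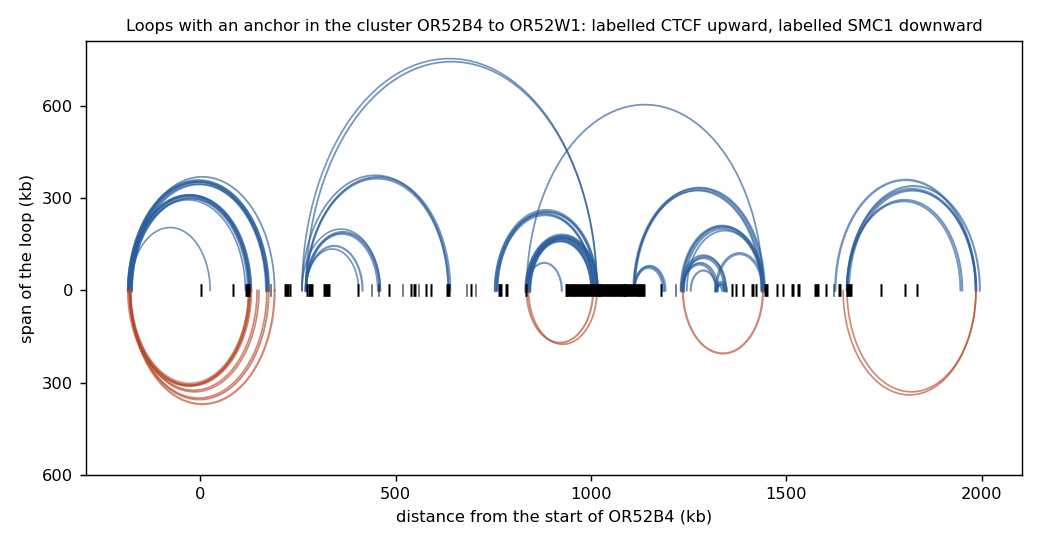
Loops with an anchor in the class I cluster, labelled CTCF upward and labelled SMC1 downward, with the span in kb as height, wider lines for more read pairs and members as black blocks, by distance from the start of OR52B4 (kb). The CTCF-labelled list has 40 loops with both anchors inside the cluster and the SMC1-labelled list has 3.

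As raw counts, the class II clusters together held fewer loops labelled CTCF than the class I cluster, but not fewer labelled SMC1. There are 117 class II members and 55 class I members, however. A loop labelled SMC1 lay near 5.98% of class II and 20% of class I members. The SMC1-labelled list had 6 loops inside OR6X1 to OR8A1 and 1 with an anchor there, and 7 with an anchor in OR5AN1 to OR10V1. The highest read pair count near any member was 102, at 13.4 times the expected number, between chr11:59170001 and chr11:59430001. The SMC1-labelled list had the same bins, with 58 read pairs at 7.99 times. One end held the printed site near OR5A2 and OR5A1, and the other held the 5′ end of DTX4, which encodes a ubiquitin ligase of the Deltex family. Weaker loops ran from the same receptor bin to MPEG1, a pore-forming protein of phagocytes, with 33 and 21 read pairs. Beside OR10D3, chr11:124070001 was joined to chr11:124195001 by 83 read pairs at 12.4 times the expected number and by 27 at 3.69 times. OR8B4 was joined to OR8A1 by 43 read pairs at 8.51 times and by 15 at 4.49 times. The printed sites of OR8B3 and OR8A1 stood in the anchors of a neighbouring loop labelled CTCF, with 18 read pairs at 7.06 times. Within OR4A16 to OR5AK2 there was a single loop labelled CTCF, between chr11:55655001 beside OR4C6 and chr11:55705001, with 44 read pairs at 2.65 times, and no loop labelled SMC1. OR2AT4 was spanned by 11 loops labelled SMC1 and 21 labelled CTCF whose anchors lay on either side of it.

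Loops that left the receptor genes ended beside the 5′ end of another coding gene about as often as loop anchors elsewhere did. With 1 anchor near a member there were 20 loops labelled SMC1 and 60 labelled CTCF. In 7 and 17 of these, the far anchor lay within 5 kb of the 5′ end of a coding gene that is no member, among them DTX4, MPEG1, TRIM22, VWA5A and CAVIN3. These are 35% (from 18.1% to 56.7%) and 28.3% (from 18.5% to 40.8%), and of all anchors of the other loops of the chromosome 34.2% and 28.6% lay as near to such a 5′ end. Both anchors lay near members in 6 and 35 loops.

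Where both anchors held a motif of at least 13 bits, their directions were compared. The best match anywhere in the 5 kb bin of each anchor was taken, not only matches within 300 bp of a summit. This was possible for 28 loops labelled CTCF near members, of which 24 were convergent (85.7%, from 68.5% to 94.3%), 4 pointed the same way and 0 were divergent. Among other loops of the chromosome with this label the convergent share was 67.7% (from 64.8% to 70.5%). For the SMC1 label 6 of 8 loops near members were convergent, and the share elsewhere was 64.5%. In both lists, the loops of OR52K1 counted as pointing the same way rested on a plus-strand site of 15.4 bits. A minus-strand match of 15.2 bits lay within 300 bp of the summit there. Taking that match would make these loops convergent. All 24 convergent pairs used different combinations of sites, but single sites recurred, such as the one near OR51D1 and the one inside OR51B5, so the loops are not independent.

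The downstream and regulatory genes of olfaction were looked up in the same lists. The 18 genes were the G protein subunit GNAL, the adenylyl cyclase ADCY3, the channel subunits CNGA2, CNGA4 and CNGB1, the chloride channel ANO2, the marker OMP, the trafficking factors RTP1, RTP2 and REEP1, GNG13, PDE1C, SLC24A4 and RIC8B, and the regulators LHX2, LDB1, EMX2 and EBF1. All 18 had both an SMC1 and a CTCF summit within 20 kb, as 91.3% and 90.0% of the other coding genes of chromosome 11 had the one or the other, and several of the 18 are long, up to 676953 bp for PDE1C. SMC1 summits lay within 1 kb of the 5′ end of 5 and CTCF summits of 2, against 52.7% and 36.8% of those other coding genes. Loops labelled SMC1 reached 10 of the 18 and loops labelled CTCF reached 17, against 61.9% and 81.3% of those other coding genes. EBF1 is a regulator of B cells as well. A peak is not expression, and no RNA was measured here.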

How the data were processed

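HiChIP libraries of HG00731 cells were made in 2 replicates per target. Reads were mapped by the authors with BWA-MEM (build hg38), filtered to a mapping quality over 30, cleared of duplicates and pooled over the replicates. The authors called peaks without input in MACS3 (q-value limit 0.01, version 3.0.1 per the submitters' processing notes). Each deposited peak has a fold enrichment, which is a ratio to local background, and a -log10 q-value. Loops came from MAPS in nf-HiChIP, and each deposited loop has a raw count of read pairs between its 5 kb bins beside the expected number. No column of the authors' own comparisons was present.

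From these, distances were measured from gene bodies of GENCODE 44 to summits or anchors in Python 3.11.15 with pandas 2.3.3, numpy 2.4.6 and pysam 0.24.0, intervals were taken from scipy 1.17.1, and the window counts, word counts, motif search and flank comparison were tested on simulated data. Chromosome lengths matched, since no peak or loop ran past an hg38 chromosome end. The members and lists were chosen with earlier results of these data known. The motif settings and the 60% limit for alike flanks were chosen after seeing the data. Members were named when they had the 5 highest -log10 q-values or loop read pairs per list, a summit in the body or within 1 kb of the 5′ end, or stood at a cluster's ends, beside the beta-globin genes, at the longest stretch without peaks or at the 20 kb limit. Far-anchor genes had a 5′ end within 5 kb. Other members named for families, motif sites, further gaps or chains of loops were chosen after their values were seen. Alternatives covered distance, thresholds, cluster definition and exchange of the loop lists.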

Additional observations from a re-analysis of the deposited data

How the results depend on the processing

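Every share, density and overlap stayed below its comparison value under all 64 alternatives, and 40 stayed within the interval of the value reported. Some alternatives did not change the member value. A length limit on the other genes changes only the comparison, and splitting clusters at gaps over 250 kb gave the same counts. With summits within 200 bp, 55.7% (from 44.1% to 66.8%) of cluster CTCF peaks met an SMC1 peak, against 59.5% outside, which lies inside that interval. With a window of 10 kb, SMC1 peaks were near 22.7% of members, CTCF peaks near 22.1% and loops labelled CTCF near 17.4%. With 50 kb the shares were 61.0% and 61.6% for peaks and 24.4% and 44.2% for loops labelled SMC1 and CTCF. A -log10 q-value of at least 10 gave 25.6% for CTCF peaks, 10.3 SMC1 and 8.12 CTCF summits per Mb of cluster, and an 81.2% overlap of CTCF with SMC1 peaks against 81.7% outside. Counting the first gene of each of 47 groups with overlapping windows gave 51.1% for CTCF peaks. Without the class I cluster OR52B4 to OR52W1 the shares were 24.8% for SMC1 peaks, 5.98% for loops labelled SMC1 and 14.5% for loops labelled CTCF. Without OR4A16 to OR5AK2 they were 44.4% for CTCF peaks and 33.1% for loops labelled CTCF. Loops with at least the median read pairs gave 4.65% for the SMC1 label. Anchors that overlap the gene body gave 4.65% and 8.72%. Clusters split only at gaps over 1000 kb, which take in more other genes, held 25.5 SMC1 and 19.9 CTCF summits per Mb. Exchanging the loop lists, an alternative chosen after seeing the data like that of leaving out the long genes, turned 10.5% into 25.6% and the reverse. No paired analysis was possible because the replicates had been pooled, and for the same reason no replicate could be left out. The cause of these shifts was not tested. Peaks past the q-value limit are not in the lists and no loop had under 12 read pairs, so an empty window is not an absence of binding.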
